A study of Mus musculus with 6 samples.

Results

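The proteins of the mitochondrial ribosome were examined in liver RNA as the 78 rows of the gene table whose symbol is Mrpl or Mrps followed by a number and at most a letter. They were chosen by name alone out of 56534 genes or loci, and 49 of them have Mrpl and 29 Mrps symbols. The 3 LKO libraries came from livers of C57BL/6 mice with a hepatocyte-specific deletion of CD36, a membrane protein that takes up long-chain fatty acids, and their genotype is labelled CD36-/-. The 3 CON libraries came from wild-type C57BL/6 livers. All animals had eaten a diet with 60 kcal% fat for 16 weeks, so no group had a standard diet. The promoter that drove the deletion, and the age and sex of the animals, could not be taken from the labels. Hepatocytes alone are named as the deleted cells, and endothelial cells and macrophages of the liver, which also express Cd36, were left in the tissue. Separate animals behind the 3 libraries per group are not named in the labels. Each p-value below is therefore relative to the scatter of these libraries, which may in part be technical.

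The mitochondrial ribosome translates the few mRNAs of the mitochondrial genome, all of which encode subunits of the respiratory chain and ATP synthase. Its rRNAs are transcribed inside the organelle, whereas all of its proteins are encoded in the nucleus, made on cytosolic ribosomes and imported. The large subunit joins amino acids and holds the exit tunnel, and the small subunit binds and decodes the mRNA. Many of the proteins descend from ribosomal proteins of the bacterial ancestor, and others have joined the ribosome in mitochondria only. Hepatocytes are rich in mitochondria and burn fatty acids in them.

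By the place of each protein in the ribosome, 51 members belong to the large subunit and 26 to the small subunit. This count puts Mrps30 and Mrps18a in the large subunit, where their products lie despite their names. The remaining member, Mrps36, encodes a protein that is now known as a component of the alpha-ketoglutarate dehydrogenase complex and not of the ribosome. Bacterial ribosomes hold a counterpart for 48 members, and 29 ribosomal members have no counterpart in them. In the GENCODE M21 annotation the members lie on 17 chromosomes. A total of 12 pseudogene rows with names built on these symbols lay outside the rule, and their highest value in any library was 0.

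Values are FPKM, fragments scaled per kilobase of gene and to the number of mapped fragments of the library, which makes levels of different genes comparable per length. A library held 10614 to 10768 genes at 1 FPKM or more in the LKO group and 10870 to 11311 in the CON group. The depth in reads is unknown. Cd36, the deleted gene (ENSMUSG00000002944), had 2.73, 3.70 and 10.2 FPKM in LKO 1, LKO 2 and LKO 3, against 62.0, 26.5 and 19.7 FPKM in CON 1, CON 2 and CON 3. All LKO libraries lay below all CON libraries, and LKO 3 lay nearest to them. Its log2 fold change, on the log2(FPKM + 1) scale used throughout, was -2.50 (SE 0.51, limma adjusted p = 0.163). An exact two-sided permutation test gave p = 0.1, the smallest that 3 libraries against 3 allow. With LKO 3 left out, the change in Cd36 was -2.98 on that log2 scale (limma adjusted p = 0.0165). LKO 3 also stood nearer to the CON libraries in the members. The Spearman rho of the members' levels was 0.965 to 0.979 between LKO 3 and the CON libraries. It was 0.938 between LKO 3 and LKO 1, and 0.901 between LKO 3 and LKO 2. Calls and medians of the members are therefore given with and without it. Leaving out the LKO library nearest to CON can widen the differences by construction, in Cd36 as in the members.

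The liver identity of the samples held in both groups. All 8 hepatocyte markers were tested, and their summed level was 43977 to 54266 FPKM in LKO and 48083 to 68702 FPKM in CON. Markers of Kupffer cells and macrophages summed to 85.2 to 173 FPKM in LKO and 114 to 166 FPKM in CON, and those of stellate cells to 79.1 to 118 FPKM in LKO and 83.4 to 89.6 FPKM in CON. Endothelial markers summed to 38.6 to 52.4 FPKM in LKO and 29.2 to 83.8 FPKM in CON. The test called 0 markers of these lists, but only 1 of all 11104 tested genes (0.00901%), so that count says little. The median log2 fold change was -0.37 in hepatocyte, -0.20 in Kupffer cell and macrophage, 0.19 in stellate and -0.29 in endothelial markers. It was -0.23 over all tested genes. Lep of fat cells and Ckm and Myh4 of skeletal muscle were listed at 0 in all 6 libraries. The 3 fat cell markers, Lep included, summed to 0.01 to 0.11 FPKM in LKO and 0.01 to 0.04 FPKM in CON. The 3 muscle markers summed to 0 to 0.14 FPKM in LKO and in CON. In such bulk RNA, fewer cells of a type and less RNA per cell cannot be told apart.

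All 78 members passed the filter of a mean of 1 FPKM over the 6 libraries, together with 11104 genes or loci in all. Their mean level had a median of 27.5 FPKM, against 6.66 FPKM for all tested genes. Mrpl52, a large-subunit protein found in mitochondria only, was the most abundant member with 245 ± 36.0 FPKM in LKO and 181 ± 11.2 FPKM in CON (SD, n = 3 each). Mrps21, a small-subunit protein with a bacterial counterpart, followed with 148 ± 33.4 FPKM in LKO and 110 ± 9.33 FPKM in CON. Mrpl14, the large-subunit protein that the assembly factor Malsu1 binds, averaged 118 ± 26.0 FPKM in LKO and 103 ± 3.78 FPKM in CON. Mrpl17, whose bacterial relative lies by the exit tunnel, averaged 122 ± 19.8 FPKM in LKO and 94.3 ± 9.31 FPKM in CON. At the low end, Mrpl19 had 2.83, 1.25 and 1.94 FPKM in LKO 1 to 3, against 2.58, 1.87 and 2.26 FPKM in CON 1 to 3. Most of these proteins occur in equal copy number in the ribosome, while the mRNA levels of these genes spanned 2.12 to 213 FPKM. The order of the levels was much the same in every library, with a Spearman rho of 0.90 to 0.99 between any pair. Genes with a shorter coding sequence had higher levels (rho -0.49 with the length of the coding sequence and -0.42 with the length column of the table, over 78 genes that share the libraries).

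**Figure D1:**
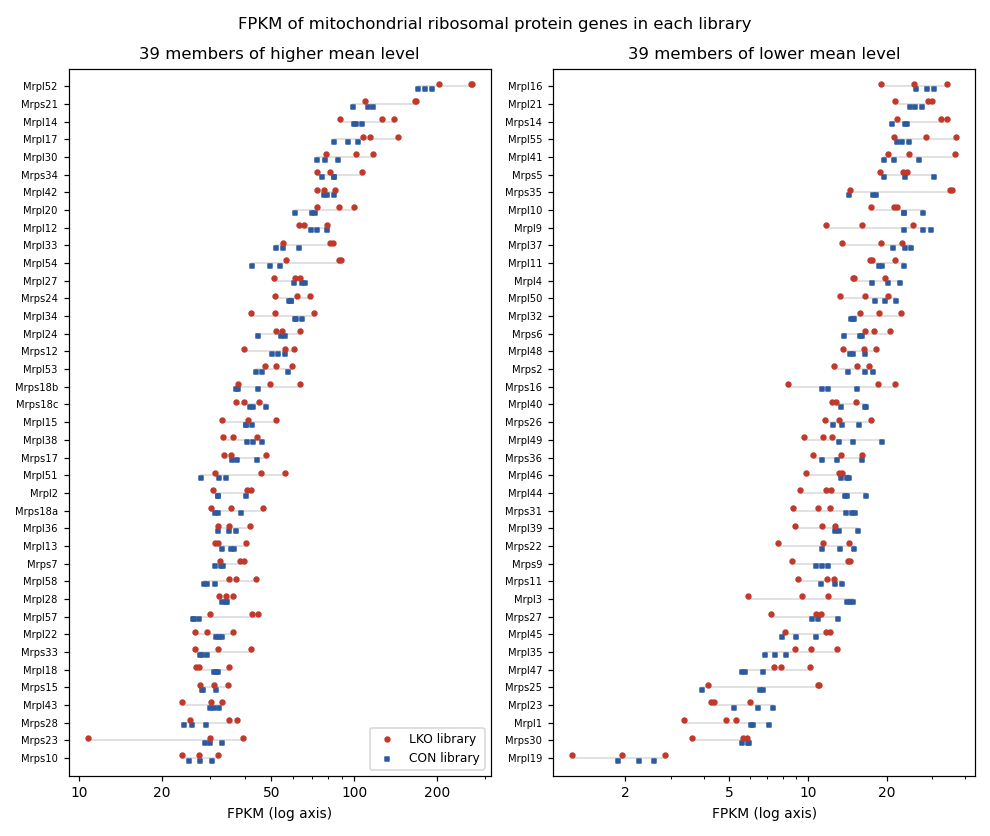
FPKM of the 78 members in each library on a log axis, with genes ordered by mean level and split over 2 panels; red circles are LKO libraries and blue squares CON libraries, and the grey line joins the lowest and the highest library. Levels run from Mrpl19 at a mean of 2.12 FPKM to Mrpl52 at 213 FPKM, and most LKO and CON points of a gene overlap.

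No mitochondrial ribosomal protein gene passed the test between LKO and CON livers. Of the 78 members, 0 were called higher and 0 lower (limma, adjusted p from 0.191 to 0.999 over the members), while 1 of all 11104 genes, 0.00901%, was called. At an unadjusted p under 0.05, 4 members were higher and 2 lower, against 361 and 2099 of all genes, or 3.25% and 18.9%. The log2 fold changes ran from -0.67 to 0.65, with a median of 0.00, 40 above zero and 38 below. The median of all tested genes was -0.23, so the members lay 0.23 above it in the median, and 64 of 78 lay above it, where 50% of all genes do by definition. All LKO libraries lay above all CON libraries in 10 members (12.8%), against 3.92% of all genes, and below them in 6 members (7.69%), against 24.3% of all genes. The distance of 0.23 to all genes was 0.028 when no filter on low values was used, and 0.028 with the trend of the principal transcript length removed, so it depends on both choices. After the trend with the length column was removed from each library, 14 members lay above and 9 below all CON libraries, against 12% and 11.9% of all genes.

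Whether that zero is read as a shift depends on the scale of the libraries. After median-ratio scaling, the median of all genes was 0.01 and that of the members 0.29. After rescaling every library to the same sum of FPKM, the median of all genes was -0.48 and that of the members -0.30. The direction of the members' median thus turns round with the scaling, and the distance to all genes was 0.23 as deposited, 0.28 with median-ratio scaling and 0.18 with the sums made equal. Without LKO 1 the distance was 0.14 and the members' median -0.10, and without LKO 3 they were 0.33 and 0.04. With median-ratio scaling the groups did not overlap in 24 members that were higher in LKO and 3 that were lower, against 12.3% and 11.1% of all genes. With equal sums these were 2 and 25 members, against 1.5% and 35.9% of all genes.

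The 3 LKO libraries differed among themselves in these genes more than the CON libraries did. Each library's deviation from the CON mean was taken on the log2 scale. Over the members its median reached 0.24, -0.11 and -0.07 in LKO 1 to 3, against 0.03, -0.05 and 0.01 in CON 1 to 3. For all genes it was -0.21, -0.38 and -0.11 in the LKO libraries and 0.08, -0.09 and 0.01 in the CON libraries. The members stood above the average gene in LKO 1 and LKO 2, by 0.45 and 0.28, and by 0.04 in LKO 3. LKO 1 was the highest of the 6 libraries in 44 members. LKO 2 was the lowest in 33 members and LKO 3 in 19. These counts are given without those over all genes, whose median deviation was also lowest in LKO 2. Summed over the members, the level was 3333, 2844 and 2584 FPKM in LKO 1 to 3, against 2641.5, 2610.4 and 2710.5 FPKM in CON 1 to 3. As a share of all FPKM of the library it was 0.283%, 0.224% and 0.269% in LKO, against 0.318%, 0.281% and 0.277% in CON. Both measures overlapped between the groups, LKO 2 having the lowest share and CON 1 the highest. The mitochondrially encoded genes, which count into the total, held 5.27%, 10.1% and 4.14% of the FPKM in LKO 1 to 3, against 6.18%, 4.74% and 3.88% in CON 1 to 3. The part of these shares in the members' values was not tested.

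**Figure D2:**
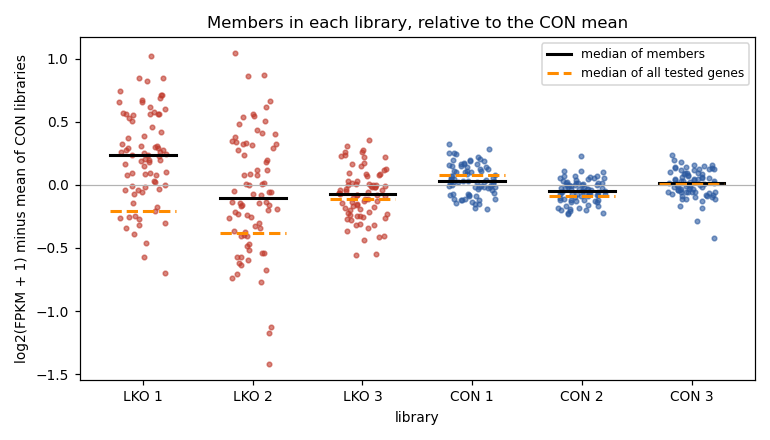
Each point is a member in a library, as log2(FPKM + 1) minus the mean of the CON libraries; the black bar is the median of the 78 members and the dashed orange bar that of all tested genes. The members' median lies above that of all genes by 0.45 in LKO 1, 0.28 in LKO 2 and 0.04 in LKO 3, and close to it in the CON libraries.

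The members with the smallest p among those that stood above the all-gene median all belong to the large subunit. Mrpl54 (ENSMUSG00000034932), a protein found in mitochondrial ribosomes only, had 87.9, 89.3 and 56.3 FPKM in LKO 1 to 3, against 42.4, 49.5 and 53.7 FPKM in CON 1 to 3. The LKO libraries lay above all CON libraries, LKO 3 by a small margin, and the log2 fold change was 0.65 (SE 0.22, limma adjusted p = 0.191). Mrpl57 (ENSMUSG00000021967), another mitochondrial addition with a coding sequence of 102 codons, had 44.9, 42.5 and 30.0 FPKM in LKO 1 to 3, against 27.3, 25.9 and 26.2 FPKM in CON 1 to 3. Its groups did not overlap, LKO 3 was again the lowest of the LKO libraries, and the log2 fold change was 0.53 (SE 0.20, adjusted p = 0.199). Mrpl52 had 267, 265 and 204 FPKM in LKO 1 to 3, against 170, 181 and 192.5 FPKM in CON 1 to 3. Here too every LKO library was higher than every CON library (log2 fold change 0.42, SE 0.18, adjusted p = 0.225). Mrpl58, the peptidyl-tRNA hydrolase that frees stalled mitochondrial ribosomes, had 44.1, 37.3 and 35.1 FPKM in LKO 1 to 3, against 29.2, 31.2 and 28.5 FPKM in CON 1 to 3. Its libraries did not overlap either, and its log2 fold change was 0.37 (SE 0.16, adjusted p = 0.230).

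Proteins of bacterial descent were among them as well. Mrpl35 had 12.9, 10.3 and 8.96 FPKM in LKO 1 to 3, against 6.87, 7.50 and 8.22 FPKM in CON 1 to 3 (log2 fold change 0.45, SE 0.19, limma adjusted p = 0.222). Mrpl47, the counterpart of a bacterial protein at the mouth of the exit tunnel, had 10.2, 7.86 and 7.40 FPKM in LKO 1 to 3, against 5.57, 5.75 and 6.71 FPKM in CON 1 to 3. Mrpl17 had 145, 108 and 114 FPKM in LKO 1 to 3, against 84.7, 94.9 and 103 FPKM in CON 1 to 3. In each of these genes LKO 1 was the highest library, and the LKO and CON values did not overlap. Mrpl20, whose bacterial relative binds the rRNA early in assembly, had 99.8, 88.0 and 73.2 FPKM in LKO 1 to 3, against 60.9, 70.1 and 72.0 FPKM in CON 1 to 3. LKO 3 was just above CON 3, the highest CON library. The log2 fold changes of Mrpl47, Mrpl17 and Mrpl20 were 0.43, 0.36 and 0.35. The other 2 members with LKO above CON throughout were Mrpl32, a protein that a protease of the inner membrane must mature, and Mrps6 of the small subunit, at 0.33 and 0.25. All 8 genes named before these 2 kept values above zero under both other scalings, which Mrps6 did not with equal sums (-0.04).

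Among the members below the all-gene median, the smallest p belonged to Mrpl3 (ENSMUSG00000032563), which lies near the peptidyl transferase centre. It had 9.48, 5.88 and 11.9 FPKM in LKO 1 to 3, against 14.9, 14.2 and 14.5 FPKM in CON 1 to 3. All LKO libraries were lower than the narrow CON range, LKO 2 the most so, and the log2 fold change was -0.67 (SE 0.24, limma adjusted p = 0.197). Mrpl9 (ENSMUSG00000028140), whose bacterial relative sits at the foot of the L1 stalk, had 16.1, 11.7 and 25.3 FPKM in LKO 1 to 3, against 29.7, 23.3 and 27.7 FPKM in CON 1 to 3. LKO 3 lay inside the CON range, and the log2 fold change was -0.63 (SE 0.27, adjusted p = 0.226). Mrpl1, the protein of that stalk, which guides the spent tRNA out of the ribosome, had 4.85, 3.36 and 5.28 FPKM in LKO 1 to 3, against 7.12, 6.05 and 6.16 FPKM in CON 1 to 3. Its libraries did not overlap (log2 fold change -0.45, SE 0.20, adjusted p = 0.231). Mrps31, the only small-subunit gene among the 8 named in this direction, had 10.9, 8.78 and 12.1 FPKM in LKO 1 to 3, against 15.2, 13.9 and 14.7 FPKM in CON 1 to 3. All LKO values lay below all CON values (log2 fold change -0.44, SE 0.18, adjusted p = 0.214).

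The rest of that set were Mrpl49, Mrpl44, Mrpl39 and Mrpl10. Mrpl49 averaged 11.1 ± 1.40 FPKM in LKO and 15.7 ± 3.10 FPKM in CON, and Mrpl44, which has the fold of an RNase III enzyme, 11.1 ± 1.55 FPKM in LKO and 14.9 ± 1.53 FPKM in CON (SD, n = 3 each). Mrpl39, which resembles a tRNA synthetase, averaged 11.0 ± 1.93 FPKM in LKO and 13.8 ± 1.54 FPKM in CON. Mrpl10, the base of the stalk that recruits translation factors, averaged 20.2 ± 2.52 FPKM in LKO and 24.8 ± 2.43 FPKM in CON. Their log2 fold changes were -0.45, -0.40, -0.32 and -0.28, and after median-ratio scaling that of Mrpl10 was 0.0042. As deposited, groups overlapped in Mrpl39 and not in the other 3, and 24.3% of all genes were lower without overlap. After median-ratio scaling the groups overlapped in each of these genes. The partners of Mrpl10 in the stalk region overlapped between the groups, with Mrpl12 at 69.5 ± 8.91 FPKM in LKO and 74.3 ± 4.97 FPKM in CON and Mrpl11 at 18.8 ± 2.41 FPKM in LKO and 20.4 ± 2.55 FPKM in CON.

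**Figure D3:**
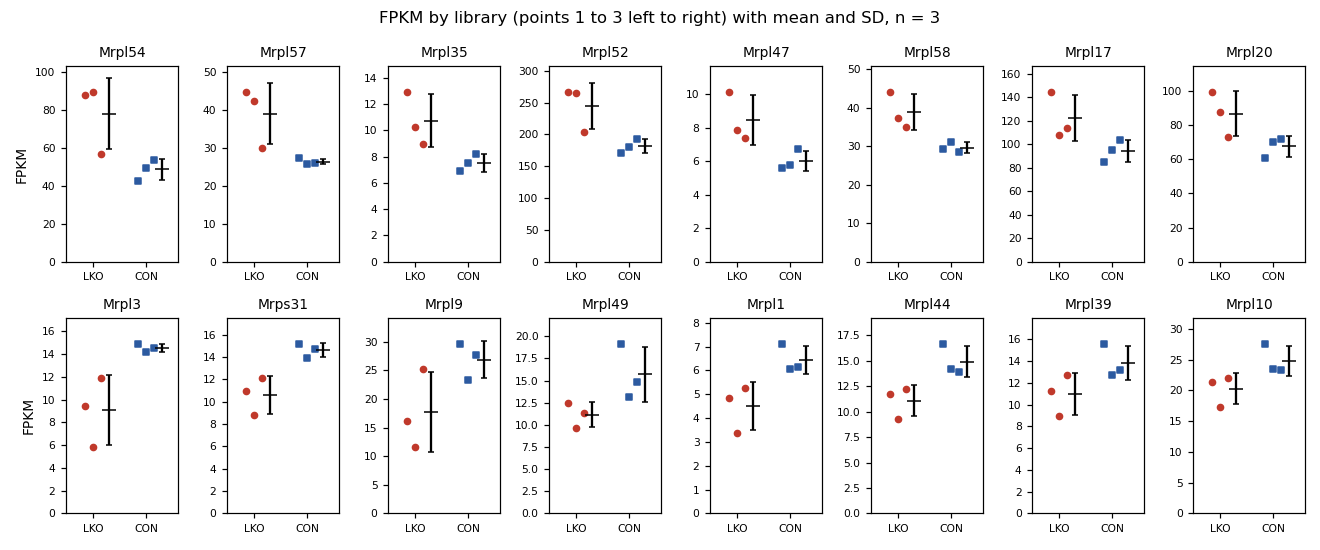
FPKM of the 8 members with the smallest p above the all-gene median (top row) and the 8 below it (bottom row), with LKO libraries in red left of CON libraries in blue and the mean and SD of 3 libraries beside each set of points; every axis starts at 0. The groups do not overlap in the top row, LKO 3 is near the CON points in Mrpl54, Mrpl57 and Mrpl52, and Mrpl9 and Mrpl39 overlap in the bottom row.

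Nuclear genes of mitochondrial proteins often carry sites for the activators NRF-1 and GABP near their start. As examples, the 250 bases before the start are printed for 2 members that stood high and 2 that stood low in LKO. They come from the promoter table of RefSeq on GRCm38.p6. Each printed stretch holds a match to 1 of these motifs, whereas Mrpl1, Mrpl49, Mrpl10, Mrps31 and Mrpl47, also named above, hold neither. Capitals mark the first NRF-1 match in Mrpl57 and Mrpl9 and the ETS match that GABP binds in Mrpl52 and Mrpl3.
Mrpl57, chr14:57825989-57826238, plus strand: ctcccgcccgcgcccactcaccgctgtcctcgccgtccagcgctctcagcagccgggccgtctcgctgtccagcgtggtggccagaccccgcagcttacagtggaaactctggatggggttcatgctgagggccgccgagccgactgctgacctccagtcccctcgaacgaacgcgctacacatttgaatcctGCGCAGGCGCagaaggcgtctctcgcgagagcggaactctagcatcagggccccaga
Mrpl52, chr14:54426659-54426908, plus strand: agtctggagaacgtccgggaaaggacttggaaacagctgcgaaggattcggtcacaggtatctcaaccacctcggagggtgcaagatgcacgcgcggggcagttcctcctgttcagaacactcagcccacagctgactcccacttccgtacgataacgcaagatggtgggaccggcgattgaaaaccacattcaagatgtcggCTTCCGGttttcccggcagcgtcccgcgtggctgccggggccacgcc
Mrpl3, chr9:105053018-105053267, plus strand: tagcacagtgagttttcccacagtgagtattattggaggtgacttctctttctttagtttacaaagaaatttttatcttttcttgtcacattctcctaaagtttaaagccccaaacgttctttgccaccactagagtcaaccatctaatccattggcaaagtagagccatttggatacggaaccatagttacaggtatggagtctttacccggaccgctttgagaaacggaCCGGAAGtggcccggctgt
Mrpl9, chr3:94443086-94443335, plus strand: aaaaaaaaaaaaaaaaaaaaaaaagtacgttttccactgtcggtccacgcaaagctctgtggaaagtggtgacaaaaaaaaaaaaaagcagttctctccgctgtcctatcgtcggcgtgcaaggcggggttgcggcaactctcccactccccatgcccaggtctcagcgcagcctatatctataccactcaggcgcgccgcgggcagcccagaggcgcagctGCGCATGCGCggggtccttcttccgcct

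The NRF-1 motif was searched as GCGCA, any base and GCGC, and the ETS motif as CCGGAAG, both on either strand, in the 300 bases from 250 before to 50 after the start. Mrpl57 held its NRF-1 match 57 bases before the start and an ETS match 5 bases after it, and Mrpl52 held ETS matches 47 bases before and 3 bases after the start. Mrpl3 held an ETS match 19 bases before the start and Mrpl9 an NRF-1 match 28 bases before it. Of the 78 members 69 had an entry by symbol. NRF-1 letters were present in 18.8% of these, in 12.2% of 8141 tested genes with an entry and in 4.6% of all 32851 promoters. Members and tested genes were counted once, with a match in any of their promoters, whereas the last share counts single promoters. ETS letters were present in 37.7% of the members, 21.6% of tested genes and 8.86% of all promoters, and the YY1 letters AAGATGGCG in 11.6%, 3.94% and 1.4%. At least 1 of these 3 motifs was found in 41 of 69 members (59.4%) and in 33.4% of tested genes. The letters TATAAA were present in 7.25% of the members, 9.37% of tested genes and 13.6% of all promoters. For the letters CACGTG these shares were 7.25%, 12.2% and 7.15%, and for CCAAT 39.1%, 42.9% and 37.4%. A match is a run of letters and not a measured site. The median log2 fold change as deposited was 0.18 in 13 members with the NRF-1 letters and -0.02 in 56 without. Those 13 members ran from -0.63 in Mrpl9 to 0.53 in Mrpl57. The median was 0.04 in 26 members with the ETS letters and -0.02 in 43 without. With the YY1 letters it was 0.0026 in 8 members, and without them 0.0006 in 61. These differences, and the part of coding length in them, were not tested.

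Some members start close to a neighbouring gene. A coding gene that starts within 1000 bases and runs the other way was annotated for 33 of 78 members (42.3%), against 17.5% of 9892 tested coding genes. Mrps11 and Mrpl46 are such a pair within the set, with starts 412 bases apart. Mrpl54 faces Apba3 at 26 bases, Mrpl36 faces the complex I gene Ndufs6 at 29 bases, and Mrpl57 faces Ska3 at 49 bases. Exons of 33 members overlap another annotated gene, in 28 of them on the opposite strand, Mrpl3 and Mrpl9 included. Because no strand setting is given, reads of such neighbours could not be told from those of the member. The median log2 fold change was 0.00 in the 33 members with such an overlap and 0.00 in the 45 without. Relative to other genes of similar length, a comparison described below, the medians were -0.04 with overlap and 0.14 without. In that comparison 16 of the 33 and 31 of the 45 lay above zero. Relative to genes of similar coding length the medians were 0.09 and 0.15. The difference between these sets was not tested.

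Compared by subunit, large-subunit members had a median log2 fold change of -0.03 and small-subunit members of 0.06, and each set spanned both signs. With median-ratio scaling these medians were 0.26 and 0.36, and with equal sums -0.33 and -0.24. The groups did not overlap in 9 higher and 5 lower members of the large subunit, and in 1 higher and 1 lower member of the small subunit, against 3.92% and 24.3% of all genes. Median-ratio scaling gave the large subunit 18 higher and 2 lower and the small subunit 6 and 1, against 12.3% and 11.1% of all genes. Equal sums gave the large subunit 2 higher and 22 lower and the small subunit 0 and 3, against 1.5% and 35.9% of all genes. Members with a counterpart in bacterial ribosomes had a median of 0.02 and those without one of -0.04. With median-ratio scaling these were 0.31 and 0.26, and with equal sums -0.28 and -0.35. The quartiles were -0.20 and 0.25 in the large subunit and -0.12 and 0.25 in the small subunit. The difference between the subunits was not tested. In the small subunit, Mrps12 of the decoding centre averaged 52.1 ± 10.9 FPKM in LKO and 53.1 ± 2.79 FPKM in CON. Mrps7, whose bacterial relative starts the assembly of the head, averaged 36.9 ± 3.94 FPKM in LKO and 32.5 ± 1.13 FPKM in CON. Mrps34 averaged 87.4 ± 17.6 FPKM in LKO and 81.6 ± 4.62 FPKM in CON. In the large subunit, Mrpl45, which tethers the exit side to the inner membrane, averaged 10.7 ± 2.17 FPKM in LKO and 9.22 ± 1.40 FPKM in CON. All 4 overlapped between the groups.

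Mammals have 3 relatives of the bacterial protein S18, each in a different position of the ribosome. Mrps18a, the relative in the large subunit, had 46.7, 30.3 and 35.6 FPKM in LKO 1 to 3, against 32.0, 31.1 and 38.9 FPKM in CON 1 to 3. Mrps18b had 63.4, 37.9 and 49.3 FPKM in LKO 1 to 3, against 37.9, 37.1 and 44.6 FPKM in CON 1 to 3. Mrps18c had 45.3, 39.8 and 37.2 FPKM in LKO 1 to 3, against 41.9, 47.9 and 43.0 FPKM in CON 1 to 3. The groups overlapped in all 3, and LKO 1 was the highest LKO library in each. Their log2 fold changes were 0.12, 0.30 and -0.12 (limma adjusted p = 0.716, 0.408 and 0.654). Scaling turned the direction of each round, to -0.18 and -0.0039 in Mrps18a and Mrps18b with equal sums and to 0.17 in Mrps18c with median-ratio scaling. Mrps36, the member outside the ribosome, averaged 13.3 ± 2.83 FPKM in LKO and 13.5 ± 2.44 FPKM in CON.

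Set against genes of similar length, the members stood only slightly apart. Each member's log2 fold change was compared with the median of the 200 other tested genes nearest to it in the length column, 100 shorter and 100 longer. The median difference was 0.10, and 47 of 78 members lay above their neighbours. It was 0.04 without LKO 1, 0.15 without LKO 2 and 0.14 without LKO 3. The distance depended on length. In 17 members under 1000 bases the median log2 fold change was 0.11, and in other genes of that length 0.17. From 1000 to 1999 bases it was -0.10 in 24 members and -0.10 in other genes. From 2000 to 3999 bases it was -0.07 in 26 members and -0.25 in other genes, and from 4000 to 7999 bases 0.00 in 11 members and -0.35 in other genes. All 11 of those long members lay above their neighbours in length. Mrpl17 and Mrps25, the longest members with 7300 and 6073 bases in the length column, stood 0.68 and 0.83 above the genes of their length. Mrps21 and Mrpl54, the shortest with 488 and 604 bases, stood 0.18 and 0.38 above theirs. Mrps25 had 10.9, 11.0 and 4.13 FPKM in LKO 1 to 3, against 6.57, 6.73 and 3.94 FPKM in CON 1 to 3, so that LKO 3 and CON 3 lay together below the rest.

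The length column equals the longest annotated transcript of GENCODE M21 in 78 of 78 members, and in 27 of them the principal transcript is shorter. With neighbours taken by the length of the principal transcript the median difference was 0.03, and with neighbours by coding length 0.12, with 54 of 78 members above. These proteins are small, and their coding sequences have a median of 582 bases against 1326 bases for all tested genes. Over 78 members the Spearman rho of the log2 fold change was -0.46 with coding length, -0.07 with the length column and -0.09 with the principal transcript. Over 9880 tested coding genes it was -0.22 with coding length and -0.29 with the length column, and over 73 cytosolic ribosomal protein genes -0.42 with coding length. Leaving out each library in turn gave -0.50 to -0.41 for the members and coding length. With the trend of the libraries with the length column removed, the members' rho was -0.19 with coding length and 0.45 with the length column, so which of both lengths it is closer to depends on that step. These are descriptions over genes that share the same 6 libraries.

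Split into 3 classes of 26 by coding length, the members had a median log2 fold change of 0.22 at 195 to 480 bases, of 0.02 at 498 to 753 bases and of -0.20 at 756 to 1326 bases. With median-ratio scaling these medians were 0.51, 0.30 and 0.07, and with equal sums -0.08, -0.28 and -0.47, so that the order of the classes was the same under each scaling and their sign was not. The groups did not overlap in 5 higher and 0 lower members of the shortest class, and in 1 higher and 5 lower of the longest class, against 3.92% and 24.3% of all genes. With median-ratio scaling these were 10 and 0 in the shortest and 4 and 3 in the longest, against 12.3% and 11.1% of all genes. With equal sums they were 2 and 7 in the shortest and 0 and 9 in the longest, against 1.5% and 35.9% of all genes. Mrpl54 and Mrpl57 belong to the shortest class, and Mrpl3 and Mrpl9 to the longest. As deviations from the CON mean, the medians of the 3 classes, from short to long, were 0.47, 0.22 and -0.04 in LKO 1. They were 0.15, -0.16 and -0.43 in LKO 2, and -0.04, -0.05 and -0.09 in LKO 3. In the CON libraries, whose deviations sum to zero by construction, the class medians lay between -0.07 and 0.09. From short to long they were -0.02, 0.03 and 0.09 in CON 1 and -0.01, -0.02 and -0.07 in CON 2. In CON 3 they were 0.04, 0.0034 and 0.01. The classes were thus lower with coding length in LKO 1 and LKO 2. The small fall in LKO 3 was like that in CON 2, and CON 1 moved the other way. The mean level moved with the difference as well (rho 0.39 over the members, 0.03 over all coding genes). The part of the length trend of the libraries in the members' values was not tested.

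**Figure D4:**
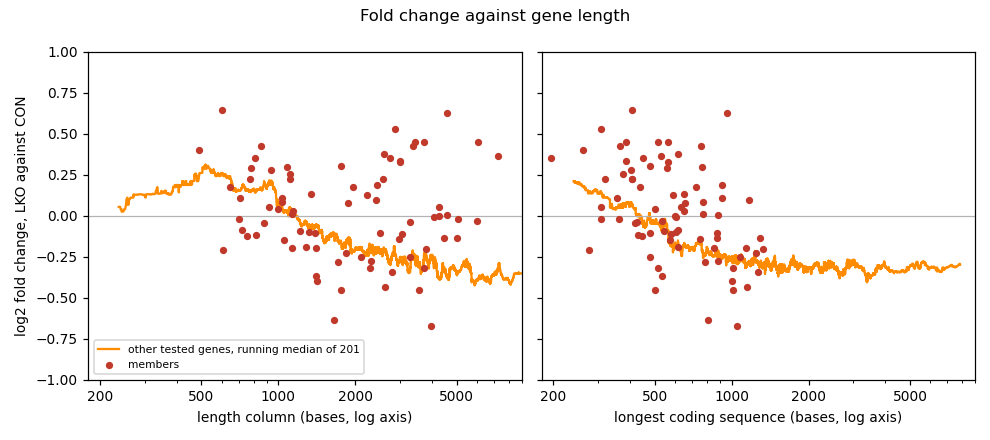
Log2 fold change of LKO against CON for each member (red points) against the length column (left) and the coding length (right), both in bases on log axes; the orange line is the running median of 201 other tested genes. In the left panel members above 4000 bases lie above the line, and in the right panel the members are lower at longer coding length, with class medians of 0.22 in the shortest and -0.20 in the longest as deposited, whose signs change with the scaling.

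Cytosolic ribosomal proteins, the closest set in function, stood higher. Of 79 such genes 74 were tested, and their median log2 fold change was 0.28, with 72 of 74 above the all-gene median and 0 called by limma. That median was 0.58 with median-ratio scaling and -0.03 with equal sums. Their groups did not overlap in 17 higher genes and 1 lower gene, against 3.92% and 24.3% of all genes. These counts were 28 and 0 with median-ratio scaling, against 12.3% and 11.1% of all genes. With equal sums they were 0 and 2, against 1.5% and 35.9% of all genes. By library the median deviation was 0.39, 0.47 and 0.09 in LKO 1 to 3, against -0.19, 0.13 and 0.06 in CON 1 to 3. LKO 2 was the highest library for cytosolic ribosomal proteins, and had the lowest median for mitochondrial ones. Their median coding length was 456 bases, against 393 bases in the shortest class of members, whose median log2 fold change was 0.22. The difference between the cytosolic and the mitochondrial set was not tested.

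Without LKO 3, 11 of 78 members (14.1%) passed the test, against 23.6% of all genes. Of these, 9 rose in LKO 1 and LKO 2, against 4.6% of all genes in that direction, and 2 fell, against 19% of all genes. The genes that rose were Mrps35, Mrpl54, Mrps25, Mrpl57, Mrpl51, Mrps21, Mrpl52, Mrpl33 and Mrps14, and those that fell were Mrpl9 and Mrpl3. Mrps35, Mrpl51, Mrpl33 and Mrps14 are named after their values were seen. Mrps35, a small-subunit protein found in mitochondria only, had 34.9, 35.6 and 14.6 FPKM in LKO 1 to 3, against 17.8, 14.4 and 18.3 FPKM in CON 1 to 3. LKO 1 and LKO 2 lay far above the CON range and LKO 3 lay inside the CON range, so the log2 fold change was 0.63 with all libraries (SE 0.34, limma adjusted p = 0.288) and 1.03 without LKO 3 (adjusted p = 0.0175). LKO 3 lay within the CON range in 7 of the 11 genes. As LKO 3 was singled out in part by the members' own levels, leaving it out can widen their differences by construction. Over the 11 genes the adjusted p without LKO 3 ran from 0.0175 to 0.0477. The medians by coding length were farther apart in LKO 1 and LKO 2 than in LKO 3, and the part of that trend in these calls was not tested.

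Partners of the mitochondrial ribosome were read from lists of genes by role, and 0 genes of any list passed in either direction. Ribosomal proteins with other names stood near the members in their difference, with 5 of 5 above the all-gene median and a list median of -0.01. Aurkaip1, a small-subunit protein, had 66.0, 66.6 and 51.3 FPKM in LKO 1 to 3, against 50.1, 49.9 and 50.7 FPKM in CON 1 to 3. Its groups did not overlap, although LKO 3 was only just above CON 3 (log2 fold change 0.27, limma adjusted p = 0.345, and -0.03 with equal sums). Dap3, the GTP-binding protein of the small subunit, averaged 18.2 ± 3.36 FPKM in LKO and 19.0 ± 4.73 FPKM in CON (SD, n = 3 each). Chchd1, Ptcd3 and Gadd45gip1 also overlapped between the groups.

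The rRNAs of the particle come from the mitochondrial genome. The small-subunit rRNA mt-Rnr1 had 1267, 2542 and 764 FPKM in LKO 1 to 3, against 598, 893 and 755 FPKM in CON 1 to 3. The large-subunit rRNA mt-Rnr2 had 1079, 2364 and 805 FPKM in LKO 1 to 3, against 670, 966 and 873 FPKM in CON 1 to 3. LKO 2 was far above the other libraries in both, LKO 3 lay within the CON range, and the groups overlapped. The log2 fold changes were 0.87 (SE 0.42, limma adjusted p = 0.252) and 0.62 (SE 0.39, adjusted p = 0.346). With LKO 3 left out, the limma adjusted p was 0.0369 for mt-Rnr1 and 0.0882 for mt-Rnr2. LKO 1 had the highest summed FPKM of the members and CON 1 their highest share of the library, so LKO 2 led in neither.

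Genes that build and run the ribosome had lower medians than its proteins, a difference that was not tested. After median-ratio scaling the medians of assembly factors and of transcription and RNA handling turned positive, at 0.05 and 0.14, and that of all genes was then 0.01. Assembly factors had a median log2 fold change of -0.20 over 23 tested genes of 25 listed, 12 of them above the all-gene median. Among them Mpv17l2, an inner-membrane protein needed for large-subunit assembly, had 3.91, 1.44 and 2.78 FPKM in LKO 1 to 3, against 11.4, 8.22 and 10.1 FPKM in CON 1 to 3. All LKO libraries were far below all CON libraries, LKO 3 included, with a log2 fold change of -1.60 (SE 0.28, limma adjusted p = 0.163) that missed the threshold. The GTPase gene Mtg1 averaged 8.25 ± 2.44 FPKM in LKO and 12.9 ± 1.16 FPKM in CON, Ngrn, whose product binds the large rRNA, 6.92 ± 1.55 FPKM in LKO and 10.2 ± 0.940 FPKM in CON, and the rRNA methyltransferase gene Mrm2 3.68 ± 0.851 FPKM in LKO and 5.16 ± 0.682 FPKM in CON. None of these overlapped between the groups, and lower values without overlap occurred in 5 of the 23 factors (21.7%), against 24.3% of all genes.

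Translation factors lay lower, with a median of -0.39 over 14 genes, 3 of them above the all-gene median. Taco1, the activator of the mRNA for a cytochrome c oxidase subunit, had 3.28, 2.02 and 7.02 FPKM in LKO 1 to 3, against 15.3, 8.46 and 9.39 FPKM in CON 1 to 3. Gfm1, the elongation factor that moves the ribosome along the mRNA, had 18.7, 9.10 and 31.4 FPKM in LKO 1 to 3, against 46.6, 35.3 and 34.5 FPKM in CON 1 to 3. In both genes LKO 2 was the lowest library and LKO 3 the closest to CON without reaching it. Their log2 fold changes were -1.32 (SE 0.38, limma adjusted p = 0.179) and -1.08 (SE 0.39, adjusted p = 0.197). The release factor gene Mtrf1 averaged 2.20 ± 0.562 FPKM in LKO and 3.38 ± 0.311 FPKM in CON, and the initiation factor gene Mtif2 5.78 ± 2.49 FPKM in LKO and 8.70 ± 0.737 FPKM in CON, with overlap in Mtif2 only. Lower values without overlap occurred in 4 of the 14 translation factors (28.6%), against 24.3% of all genes. Median coding length was 1318.5 bases in the translation factors and 1173 bases in the assembly factors, against 582 bases in the members.

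Mitochondrial aminoacyl-tRNA synthetases had a median of -0.31 over 14 tested genes of 17, with 5 above the all-gene median. The asparaginyl enzyme Nars2 averaged 2.68 ± 0.998 FPKM in LKO and 4.56 ± 0.812 FPKM in CON, and Hars2, Rars2 and Aars2 had log2 fold changes of -0.52, -0.56 and -0.46. Each of these 4, named for the smallest p of the list, had all LKO libraries below all CON libraries. So had 6 of the 14 tested synthetases (42.9%), these 4 included, against 24.3% of all genes. With median-ratio scaling 1 of the 14 was lower without overlap and 1 higher, against 11.1% and 12.3% of all genes. With equal sums 7 were lower and 0 higher, against 35.9% and 1.5% of all genes, so the count depends on the scaling. Genes of mitochondrial transcription and RNA handling had a median of -0.16 over 19 of 20 genes, with 13 above the all-gene median. Tfam, which packages and transcribes the mitochondrial genome, had 10.9, 5.94 and 17.7 FPKM in LKO 1 to 3, against 25.5, 19.3 and 16.8 FPKM in CON 1 to 3. LKO 3 overlapped with CON in Tfam, and the log2 fold change was -0.88 (SE 0.35, limma adjusted p = 0.212). The RNA-binding protein gene Fastkd1 averaged 3.10 ± 0.728 FPKM in LKO and 5.92 ± 0.847 FPKM in CON without overlap. The polymerase subunit gene Polg2 and the tRNA-processing gene Elac2 had log2 fold changes of -0.43 and -0.54.

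Regulators of mitochondrial biogenesis had a median of -0.39 over 8 tested genes of 10, with 3 above the all-gene median. Gabpa, the DNA-binding subunit of GABP, had 3.84, 2.83 and 6.99 FPKM in LKO 1 to 3, against 8.30, 6.94 and 9.58 FPKM in CON 1 to 3. LKO 1 and LKO 2 were below all CON libraries and LKO 3 was just above CON 2, with a log2 fold change of -0.80 (SE 0.29, limma adjusted p = 0.196). Sp1, Yy1 and Esrra, which also bind promoters of mitochondrial genes, had log2 fold changes of -0.55, -0.48 and -0.32, with overlap in each. The rest of the tested list were Myc, Nrf1, Gabpb1 and Pprc1, at -0.47, -0.20, 0.05 and 0.38, also with overlap in each. The list had a median length of 4570 bases, and other genes of 4000 to 7999 bases had a median of -0.35. Values of these regulators are mRNA levels and give no activity.

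**Figure D5:**
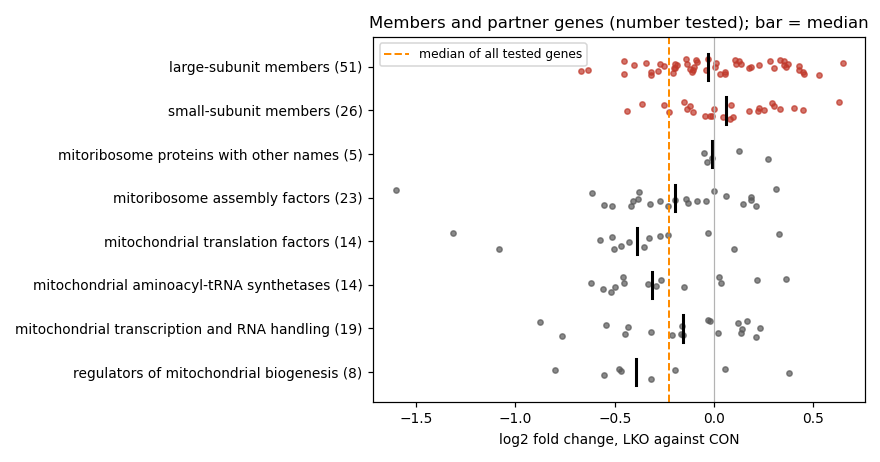
Log2 fold change of LKO against CON for each tested gene of the large-subunit and small-subunit members (red) and of the partner lists (grey), with the number tested in brackets; black bars are medians and the dashed orange line is the median of all tested genes at -0.23. The bars of both subunits and of the ribosomal proteins with other names lie right of the dashed line, and those of translation factors, aminoacyl-tRNA synthetases and regulators lie left of it.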

How the data were processed

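The deposited table held FPKM per gene, as the authors computed it, with at most 2 decimals, in 3 LKO and 3 CON libraries. Per the submitters' processing notes, HISAT2 and StringTie were used with mm9, and their versions and options, strand included, are not given in these sources. The length column equals the longest GENCODE M21 transcript, a GRCm38 annotation, for 55536 of 55536 Ensembl genes, so the build behind the lengths may not be mm9. Whole reads could not be recovered, so no count model was fitted. Genes with a mean of at least 1 FPKM (11104) were taken to log2(FPKM + 1), which understates the change of low genes, and tested with limma 3.58.1 in R 4.3.3 (trend, group only, two-sided, Benjamini-Hochberg, threshold 0.05). On simulated data the fit was tested with known changes. Members, lists and tests were chosen with earlier results of these data known. Named were Cd36, the 8 members per side of the all-gene median with the smallest p, the 4 most abundant, the 2 longest and 2 shortest, Mrps18a to Mrps18c, mt-Rnr1, mt-Rnr2 and up to 4 genes per partner list. Other genes named were chosen after their values were seen. Alternatives were other scalings, filters, a pseudocount of 0.1, length trends removed, a replicate block and leaving out each library. Python 3.11.15 made the summaries.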

Additional observations from a re-analysis of the deposited data

How the results depend on the processing

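The count of members called was 0 in all alternatives with 6 libraries and ran from 0 to 11 when a library was left out, the 11 without LKO 3. Over all genes the count was 1; it was 0 with a pseudocount of 0.1, without a filter, with a filter at 5 FPKM, with either length trend removed and with the replicate block, 2 with equal sums, and 0 to 2626 with a library left out, the highest without LKO 3. The members' median of 0.00 was 0.29 with median-ratio scaling and -0.30 with equal sums. Its distance to all genes, 0.23, was 0.028 without a filter, where 24934 genes with many low values enter, and 0.028 with the trend of the principal transcript length removed; the distance to genes of similar length was then 0.021. The cause was not tested. Cd36 ran from -2.98 to -2.03 with a library left out, and passed without LKO 3. Median-ratio scaling turned Mrpl10 to 0.0042, Mrps18c to 0.17, Mrpl11 to 0.17, Mrpl12 to 0.20, Mrps12 to 0.25, Mrps36 to 0.26, Mrpl19 to 0.06, Dap3 to 0.24 and Chchd1 to 0.26. Equal sums turned Mrpl14 to -0.13, Mrps18a to -0.18, Mrps18b to -0.0039, Mrps6 to -0.04, Mrps7 to -0.13, Mrps34 to -0.23, Mrpl45 to -0.10, Aurkaip1 to -0.033 and Gadd45gip1 to -0.16. With the length trend removed Dap3 was 0.29, and with that of the principal transcript Dap3 was 0.32 and Mrpl14 -0.031. With a library left out, Mrps18a ran from -0.041 to 0.26, Gadd45gip1 from -0.084 to 0.53, Dap3 from -0.16 to 0.14 and Chchd1 from -0.17 to 0.094. Whether library numbers pair the samples is not known. Deviations of LKO and CON libraries of the same number correlated at -0.05, 0.17 and 0.07, and those of unlike number at -0.16 to 0.06. Values centred on 3 libraries per group cannot settle the pairing. The replicate block left 0 members and 0 genes called. Depth in reads is unknown, and with 3 libraries a group no exact p falls under 0.1.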
